A study of Rattus norvegicus with 24 samples.

Results

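The cardiac sarcomere was followed through 10 of its genes in rat heart muscle: the myosin heavy chains Myh6 and Myh7, the ventricular light chains Myl2 and Myl3, the myosin-binding proteins Mybpc3 and Mybph, the troponins Tnnt2, Tnni3 and Tnnc1, and the cardiac actin Actc1. The set is defined by gene name, as all array probes whose transcript belongs to 1 of these genes, and it was put together with earlier results of these data known. Each gene had 1 such probe, so the set is 10 probes and 10 genes of the 12894 genes that were tested. Total RNA of 24 rat myocardium samples was hybridised to single-colour Agilent expression arrays, 1 array per sample, in 6 groups of 4 samples, and every group held 2 males and 2 females. The sham rats are not among those listed as ligated, and the IRI rats had the left anterior descending coronary artery ligated as a model of ischaemia and reperfusion injury. The Jiaji, Neiguan, Yanglingquan and Quchi rats were needled for 7 days at the acupoint of that name and then given the same injury. These points lie beside the spine, on the inner forearm, on the outer leg below the knee and at the elbow, respectively. No sham needling or uninjured acupuncture group was analysed here, so each acupoint group differs from IRI in the needling as a whole. The sources used here do not give strain, age, the part of the heart sampled, the length of reperfusion or when tissue was collected. The series asks, by its title and design, how acupuncture ahead of the injury acts on gene expression in the heart.

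The sarcomere is the contractile unit of striated muscle, in which thick filaments of myosin pull on thin filaments of actin. Myosin heavy chains carry the motor, light chains support its lever arm, and myosin-binding proteins run along the thick filament. The troponin complex and tropomyosin switch the thin filament on when calcium binds, and in the adult rat ventricle the fast heavy chain Myh6 dominates while the slow Myh7 is known to increase under load and injury. Cardiac troponins leak from dying cardiomyocytes and are measured in blood as markers of infarction.

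The probes of 9 of these genes lay in the brightest decile of all tested genes and were well above background on 24 of 24 arrays. By mean signal their places among the 12894 genes were 2 for Tnnt2, 3 for Actc1, 5 for Myh6, 8 for Tnni3, 9 for Myl3, 12 for Tnnc1, 26 for Myh7, 234 for Myl2 and 364 for Mybpc3. These places describe spot brightness, which depends on the probe, and they are no ranking of transcript amounts. Between 5 and 7 of the 10 genes were among the 50 brightest probes of any array. No spot was saturated, and the brightest member spot reached 37.0% of the lowest saturation value, so the upper end of the scanner's range did not cap these values. Mybph was the exception, at place 11401 and in the second dimmest decile. Its probe was well above background on 20 arrays and on 0 of the 4 Yanglingquan arrays.

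Over all arrays, 71.2% to 88.8% of probes were well above background, and the 3 lowest shares were on Yanglingquan arrays. Each group was scanned as a set of its own, apart from Quchi replicate 1, which was scanned alone on another day. Sham and IRI were scanned on 1 day and the acupoint groups on another, so scan and group cannot be told apart in any comparison below, and scan day and acupuncture cannot be told apart where an acupoint group is set against IRI or sham. Levels are given as log2 of the processed spot signal over the array's 75th percentile, called the percentile scale below, and a gene is said to be called when its adjusted p from limma is under 0.05. In heart tissue, fewer cells of a type and less RNA per cell cannot be told apart.

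On the percentile scale, more of these genes were called against IRI in Yanglingquan than in the other acupoint groups. Against IRI, 7 of the 10 were higher and 1 was lower, while 4.09% of all tested genes passed as higher and 8.03% as lower. The 7 were both heavy chains, the light chain Myl3, the 3 troponins and Actc1, with differences of 0.49 to 0.80 on the log2 scale, and the 1 lower was Mybph. Myl2 and Mybpc3 were not called. The median difference of the 10 genes was 0.62, beside -0.04 for all genes tested and 0.18 for the 1290 genes of the brightest decile, of which 15.9% were called higher. By overlap of the arrays the order was another: the groups did not overlap IRI for 7 of the 10 genes in Neiguan, 6 in Yanglingquan, 3 in Jiaji and 1 in Quchi, beside 15.3%, 15.6%, 15.9% and 9.21% of all genes. The 7 in Neiguan were Myh6, Myl3, Tnni3, Tnnt2 and Actc1 above IRI and Myl2 and Mybph below it, of which Myl3 and Tnni3 were called. Yanglingquan did not overlap sham for 6 of the 10, beside 16.5% of all genes. Under quantile normalization 0 of the 10 were called higher and Mybph alone was called lower, as described further on, so the 7 higher calls hold on the percentile scale and not after every scaling.

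**Figure D1:**
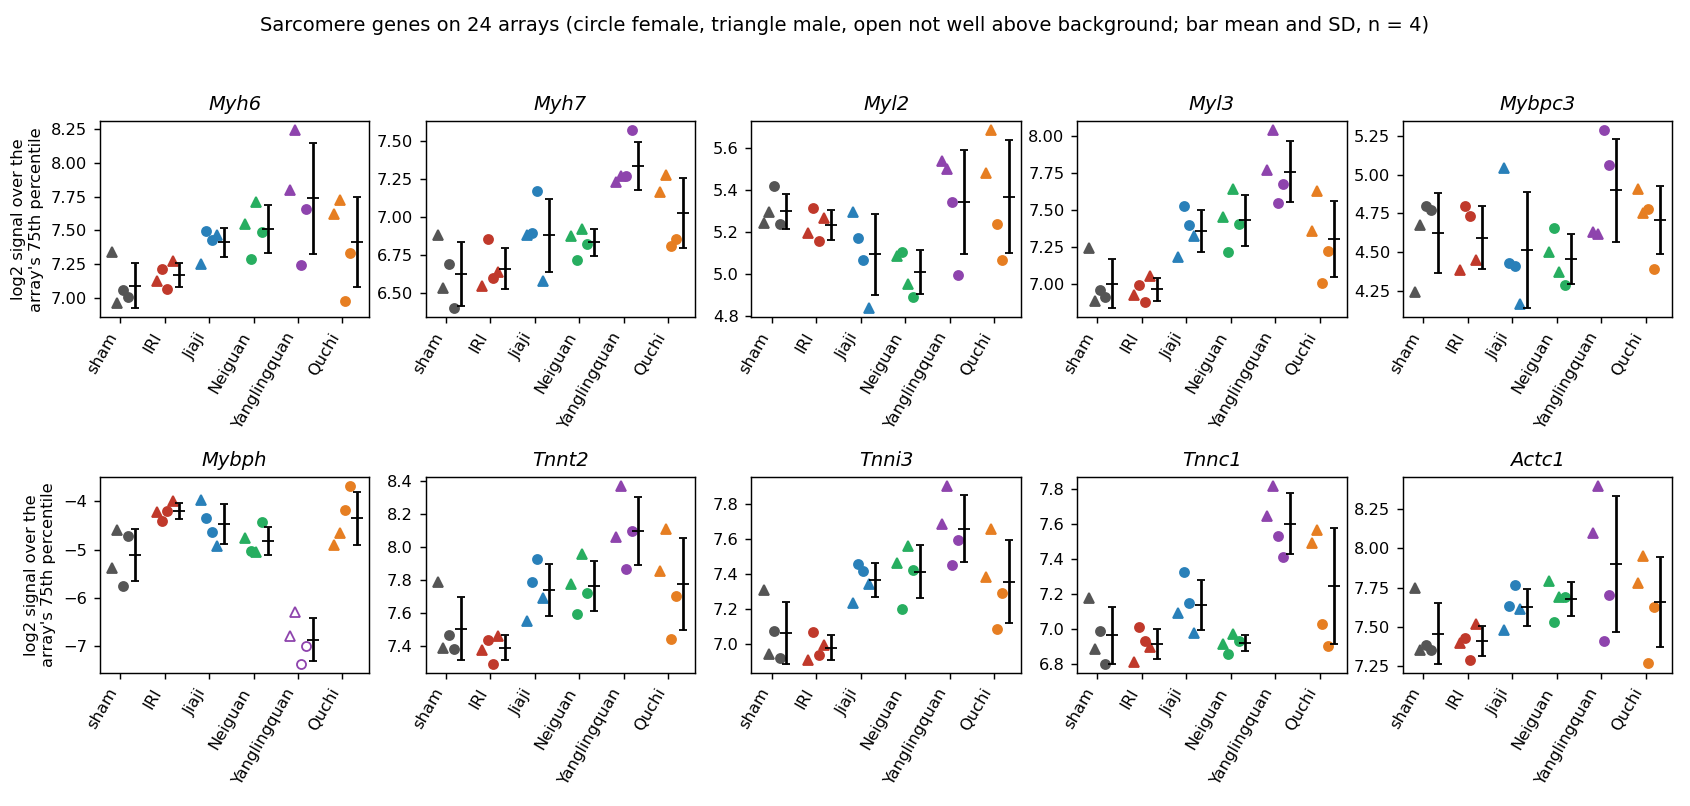
Level of each gene on the 24 arrays as log2 signal over the array's 75th percentile, with females as circles, males as triangles, open marks for values not well above background, and the mean and SD of each group of 4 beside the points. Yanglingquan has the highest group mean for Myl3, Tnnt2, Tnni3, Tnnc1, Myh7, Myh6, Actc1 and Mybpc3, and its arrays overlap those of Quchi for each. Its arrays are the lowest, between -7.37 and -6.30, for Mybph.

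Among the motor proteins, the Myh7 probe, for the slow beta myosin heavy chain, read 6.88, 6.53, 6.69 and 6.40 in sham replicates 1 to 4 and 6.55, 6.86, 6.60 and 6.64 in IRI. It read 7.23, 7.27, 7.27 and 7.57 in Yanglingquan. All 4 Yanglingquan arrays thus lay above all sham and IRI arrays, and the difference from IRI was 0.68 ± 0.14 (SE, n = 4 and 4; adjusted p = 0.00365). Jiaji arrays ran from 6.58 to 7.17, Neiguan from 6.72 to 6.92 and Quchi from 6.81 to 7.28, each group overlapping IRI. The call against IRI held without any 1 of the 8 arrays, with a highest adjusted p of 0.0156.

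The Myh6 probe, for the fast alpha heavy chain of the adult rodent ventricle, read 7.34, 6.96, 7.06 and 7.01 in sham and 7.13, 7.21, 7.07 and 7.27 in IRI. In Yanglingquan it read 7.80, 8.24, 7.25 and 7.66, a wide group in which replicate 3 fell inside the IRI range. The mean was 0.56 ± 0.15 above IRI (SE; adjusted p = 0.0186). This call ended without IRI replicate 1 (0.51, adjusted p = 0.0613) or without Yanglingquan replicate 2 (0.43, adjusted p = 0.0785). Group means ± SD were 7.41 ± 0.11 in Jiaji, 7.51 ± 0.18 in Neiguan and 7.41 ± 0.33 in Quchi, none of them called against IRI.

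Myh6 and Myh7 are neighbouring genes, and a shift from the first to the second is a classical sign of a stressed rodent heart. The log2 difference between the probes, Myh7 minus Myh6, cancels any scaling by 1 factor per array. Its value itself depends on the probes, so only its change between groups was compared. It averaged -0.47 ± 0.10 in sham, -0.51 ± 0.12 in IRI, -0.53 ± 0.28 in Jiaji, -0.67 ± 0.09 in Neiguan, -0.40 ± 0.46 in Yanglingquan and -0.38 ± 0.15 in Quchi (SD, n = 4 each). The Yanglingquan arrays split, with 2 near 0 and 1 at -0.97, and so spanned every other group. Of the 15 pairs of groups, 0 passed a two-sided exact permutation test after adjustment over the 15 (lowest adjusted p = 0.429). This design could hardly give another count. At 4 against 4 the smallest p that test can give is 0.0286, which 1 pair reached before adjustment, Neiguan against Quchi, with a difference of -0.29, while at least 9 of the 15 pairs would have to reach it for any to pass. Between IRI and sham the difference was -0.05 (exact permutation p = 0.6). Under quantile normalization the group means ran from -0.62 in Neiguan to -0.33 in Yanglingquan.

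**Figure D2:**
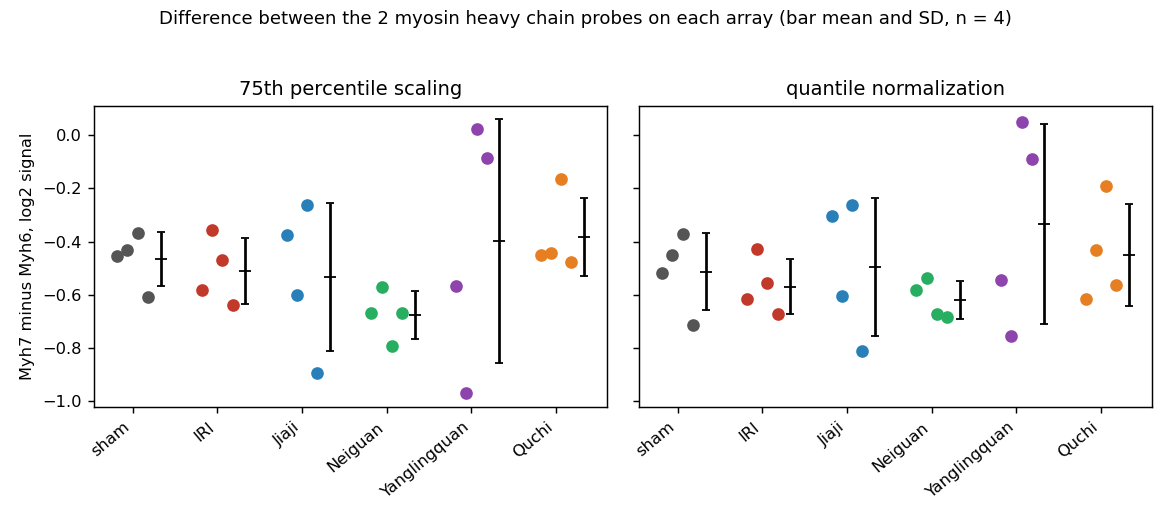
Myh7 minus Myh6 in log2 signal on each array by group, with the mean and SD of 4 arrays beside the points, on the percentile scale (left) and after quantile normalization (right). The spread within Yanglingquan (SD 0.46 on the left) exceeds the distance between any of the group means.

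The Myl3 probe, for the essential light chain of ventricular and slow muscle, read 7.24, 6.88, 6.96 and 6.91 in sham and 6.92, 6.99, 6.87 and 7.05 in IRI. It read 7.18, 7.53, 7.40 and 7.32 in Jiaji, 7.45, 7.22, 7.64 and 7.41 in Neiguan, 7.77, 8.04, 7.55 and 7.68 in Yanglingquan, and 7.36, 7.63, 7.00 and 7.22 in Quchi. Every Jiaji, Neiguan and Yanglingquan array lay above every IRI array, and Quchi overlapped IRI. Myl3 had the largest difference of the 9 bright genes in Yanglingquan, 0.80 ± 0.13 above IRI (SE; adjusted p = 0.000408; highest adjusted p without any 1 array 0.00222). It was also called in Neiguan (0.47 ± 0.13, adjusted p = 0.0297) and Jiaji (0.40 ± 0.13, adjusted p = 0.0487). These last calls were thin. The Neiguan call ended on leaving out any of 6 of its 8 arrays and the Jiaji call on leaving out any of 7 of 8, with adjusted p up to 0.102 and 0.138, and both ended under median scaling and quantile normalization.

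The Myl2 probe, for the regulatory light chain that is phosphorylated to tune contraction, read 5.24, 5.29, 5.42 and 5.24 in sham, 5.19, 5.32, 5.16 and 5.26 in IRI and 5.54, 5.50, 5.34 and 4.99 in Yanglingquan. It thus did not follow Myl3: the difference of Yanglingquan from IRI was 0.11 ± 0.13 (SE; adjusted p = 0.64). In Neiguan the 4 arrays, at 5.09, 5.11, 4.95 and 4.89, lay below all IRI and sham arrays, but the difference of -0.23 ± 0.13 from IRI was not called (adjusted p = 0.346). Groups of 4 did not overlap for 15.3% of all genes against IRI and for 27.1% against sham. The probe of Mybpc3, the cardiac myosin-binding protein C that brakes the myosin heads and is often mutated in inherited cardiomyopathy, had group means from 4.45 ± 0.16 in Neiguan to 4.90 ± 0.33 in Yanglingquan (SD), it was called in none of the 15 pairs of groups, and its difference between Yanglingquan and IRI was 0.31 ± 0.18 (SE; adjusted p = 0.306).

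Mybph, myosin-binding protein H, is a smaller relative of Mybpc3 that is known mainly from skeletal muscle and the conduction system. Its probe read -5.38, -4.60, -5.75 and -4.72 in sham and -4.23, -4.40, -4.20 and -3.98 in IRI. It read -6.79, -6.30, -7.37 and -6.99 in Yanglingquan, the lowest values of the 24 arrays. Since the probe was not well above background on any Yanglingquan array, only bounds are given, and these hold on the percentile scale alone. Mybph was at least 2.94-fold lower in Yanglingquan than in IRI and at least 1.57-fold lower than in sham. After normexp, a background correction described further on, the log2 differences were -0.67 from IRI and -0.23 from sham. The limma test used the measured signals (adjusted p = 6.77e-06 against IRI and 0.00052 against sham), and the bounds themselves were not tested. The bound sets the brighter group's mean against, on each dim array, the higher of the probe's own signal and the lowest well-measured signal, and the measured means were -6.86 in Yanglingquan, -4.20 in IRI and -5.11 in sham. Mybph was also at least 2.44-fold lower in Yanglingquan than in Jiaji, 1.92-fold lower than in Neiguan and 2.65-fold lower than in Quchi. Yanglingquan also held the 3 arrays with the fewest probes above background, its other array (76.4% of probes) lying above 1 Quchi and 1 Neiguan array. The dimmest decile of all genes, next below that of Mybph, had a median difference of -0.61 from IRI in Yanglingquan. The part of that in the Mybph result was not tested.

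Between IRI and sham, Mybph was the 1 gene of the 10 whose arrays did not overlap on the percentile scale. After quantile normalization there were 3, Myh6, Tnnt2 and Mybph, beside 14.6% of all genes. On the percentile scale Mybph was 0.91 ± 0.29 higher in IRI (SE) and was not called (adjusted p = 0.0699), and 12.8% of all genes had groups that did not overlap there. It was called without sham replicate 2, so that 1 array decides on which side of the threshold it falls. The other 9 genes differed by -0.11 to 0.08 between IRI and sham, each with an SE of 0.12 to 0.18. None of the 10 was called in that comparison by limma with Benjamini-Hochberg adjustment, beside 5.75% of all genes. At an unadjusted threshold of 0.05 the count was 1, Mybph, beside 17.8% of all genes.

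The 3 troponins and Actc1, all of the thin filament, were called higher in Yanglingquan than in IRI. Tnni3, the inhibitory troponin subunit of heart, read 7.31, 6.95, 7.08 and 6.92 in sham, 6.91, 7.07, 6.94 and 7.00 in IRI and 7.69, 7.90, 7.45 and 7.59 in Yanglingquan. Yanglingquan lay above both, by 0.68 ± 0.12 against IRI (SE; adjusted p = 0.000929). Tnnt2, the subunit that ties the complex to tropomyosin, read 7.38, 7.43, 7.29 and 7.46 in IRI and 8.06, 8.37, 7.87 and 8.09 in Yanglingquan, a difference of 0.71 ± 0.13 (SE; adjusted p = 0.0015). Tnnc1, the calcium-binding subunit of slow and cardiac muscle, read 6.81, 7.01, 6.93 and 6.89 in IRI and 7.64, 7.82, 7.53 and 7.41 in Yanglingquan, a difference of 0.69 ± 0.13 (SE; adjusted p = 0.00176). None of the 3 troponins' groups overlapped in that comparison, and each call held without any 1 of the 8 arrays. Actc1, the actin of the cardiac thin filament, read 8.10, 8.40, 7.41 and 7.71 in Yanglingquan and 7.40, 7.43, 7.29 and 7.52 in IRI. Its groups overlapped, and its call (0.49 ± 0.15 SE, adjusted p = 0.0347) ended on leaving out any of 5 of the 8 arrays: IRI replicate 1, 3 or 4, or Yanglingquan replicate 1 or 2, the last giving 0.36 with an adjusted p of 0.135.

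Outside Yanglingquan, Tnni3 was called in Neiguan (0.43 ± 0.12 above IRI, SE; adjusted p = 0.034) and in Jiaji (0.39 ± 0.12, adjusted p = 0.0432). Tnni3 read 7.46, 7.20, 7.56 and 7.42 in Neiguan and 7.24, 7.46, 7.42 and 7.34 in Jiaji, all above the IRI arrays. Both calls ended on leaving out any of 6 of the 8 arrays, with adjusted p up to 0.113 and 0.131. Together with Myl3 this made 2 of the 10 genes called higher and 0 lower in each of these groups against IRI, where 4.41% of all genes were called higher in Neiguan and 8.39% in Jiaji (1.23% and 1.8% lower). In Quchi 0 of the 10 were called against IRI by limma (2.39% of all genes higher, 1.05% lower). There 9 of the 10 differences were above 0, with a median of 0.29 beside 0.02 for all genes and 0.17 for the brightest decile. After quantile normalization 5 of the 10 were above 0, and their median was -0.02. On the percentile scale, 5 genes passed an unadjusted threshold of 0.05: Tnni3 (0.38), Tnnt2 (0.39), Myl3 (0.34), Myh7 (0.37) and Tnnc1 (0.33), beside 11.4% of all genes higher at that threshold.

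The comparisons with sham share the acupoint arrays with those just given. Against sham, 6 genes were higher in Yanglingquan (Myh6, Myh7, Myl3, Tnni3, Tnnt2 and Tnnc1, by 0.59 to 0.76) and Mybph was lower, where 5.79% of all genes passed as higher and 7.21% as lower. Actc1 was not called there. Myl3 was called in Jiaji (0.36, adjusted p = 0.0427; 17.5% of all genes higher, 6.55% lower) and in Neiguan (0.43, adjusted p = 0.02), and Tnni3 in Neiguan (0.35, adjusted p = 0.0444; 12.5% of all genes higher, 7.39% lower). In Quchi, Myh7 was called against sham (0.40, adjusted p = 0.0462; 11.8% of all genes higher, 9.26% lower), and this ended on leaving out any of 5 of the 8 arrays, with adjusted p up to 0.172. The Jiaji call of Myl3 ended on leaving out any of 5 of 8 arrays (adjusted p up to 0.131), the Neiguan call of Myl3 on leaving out any of 3 (up to 0.0753) and that of Tnni3 on leaving out any of 6 (up to 0.141). All 4 of these calls also ended under median scaling, quantile normalization and in the authors' values.

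The acupoint groups were also compared with each other, which takes the scan day out of the comparison except for Quchi replicate 1. Jiaji was below Yanglingquan for Tnnc1 (-0.46 ± 0.13 SE, adjusted p = 0.011), Myh7 (-0.46 ± 0.14, adjusted p = 0.0186), Myl3 (-0.40 ± 0.13, adjusted p = 0.0202) and Tnnt2 (-0.36 ± 0.13, adjusted p = 0.0443), in a comparison where 9.46% of all genes were lower and 20.4% higher. Neiguan was below Yanglingquan for Tnnc1 (-0.68 ± 0.13, adjusted p = 0.00163) and Myh7 (-0.50 ± 0.14, adjusted p = 0.0174), where 7.75% of all genes were lower and 12.9% higher. All of these genes lie in the brightest decile, of which 34.7% were called lower in Jiaji and 22.2% in Neiguan than in Yanglingquan. The medians of that decile were -0.29 and -0.21, beside -0.34 and -0.33 for the 10 genes. After quantile normalization 0 of the 10 were called lower in either comparison. Tnnc1 arrays of these 3 groups did not overlap, which held for 23.8% of all genes between Neiguan and Yanglingquan, 24% between Jiaji and Yanglingquan and 7.16% between Jiaji and Neiguan. The probe read 6.92, 6.86, 6.97 and 6.93 in Neiguan, 7.09, 7.32, 7.15 and 6.98 in Jiaji, and at least 7.41 in Yanglingquan. Jiaji and Neiguan lay close, and their difference of 0.22 was not called (adjusted p = 0.488). Yanglingquan was above Quchi for Myl3 (0.46 ± 0.13, adjusted p = 0.0168; 4.18% of all genes higher, 11.9% lower). Counting Mybph in the comparisons of Yanglingquan with each other acupoint group, 10 of the 60 gene-by-pair comparisons were called, all of them with Yanglingquan as 1 side. Among the other pairs 0 of the 10 were called in Jiaji against Neiguan (0% of all genes), Jiaji against Quchi (20.9%) and Neiguan against Quchi (14.5%). With no scaling, 5 of the 10 changed sign: Myh7, Myl3, Tnnt2 and Tnnc1 were then 0.02, 0.07, 0.12 and 0.01 higher in Jiaji than in Yanglingquan, and Myh7 was 0.02 higher in Neiguan.

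All of these values rest on how arrays are brought to 1 scale. On the percentile scale, the median difference of Yanglingquan from IRI went from -0.61 in the dimmest decile of genes to 0.18 in the brightest, so that brightness and the difference moved together. In Jiaji against IRI it went the other way, from 0.25 to -0.11. Quantile normalization gives every array the same distribution, and there the brightest decile's median was -0.02 in Yanglingquan and -0.09 in Jiaji. The sarcomere genes moved with it: their median difference in Yanglingquan was 0.62 on the percentile scale, 0.74 after median scaling, 0.56 with the percentile over detected probes, 0.58 after normexp background correction, 0.47 when arrays were centred on the brightest decile, 0.39 with no scaling, and 0.02 after quantile normalization and in the authors' deposited table, whose values are close to quantile normalized ones. The number called higher was 7 under each of the first 5 of these, 4 with no scaling, and 0 under the last 2. The shares of all genes called higher were 4.09%, 7.05%, 2.87%, 2.68%, 1.95%, 0.473%, 2.82% and 2.56% in the same order. Of all genes, median scaling called 6.03% lower in Yanglingquan and quantile normalization 3.79%. In Jiaji against IRI they called 5.74% higher and 12.6% lower by median scaling, and 5.75% and 4.92% by quantile normalization. For Neiguan these shares were 3.83% and 2.46% by median scaling and 4.36% and 2.47% by quantile normalization, and for Quchi 2.37% and 1.71%, and 2.61% and 2.4%. All genes together shifted as well, with medians from -0.26 with no scaling to 0.08 after median scaling.

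**Figure D3:**
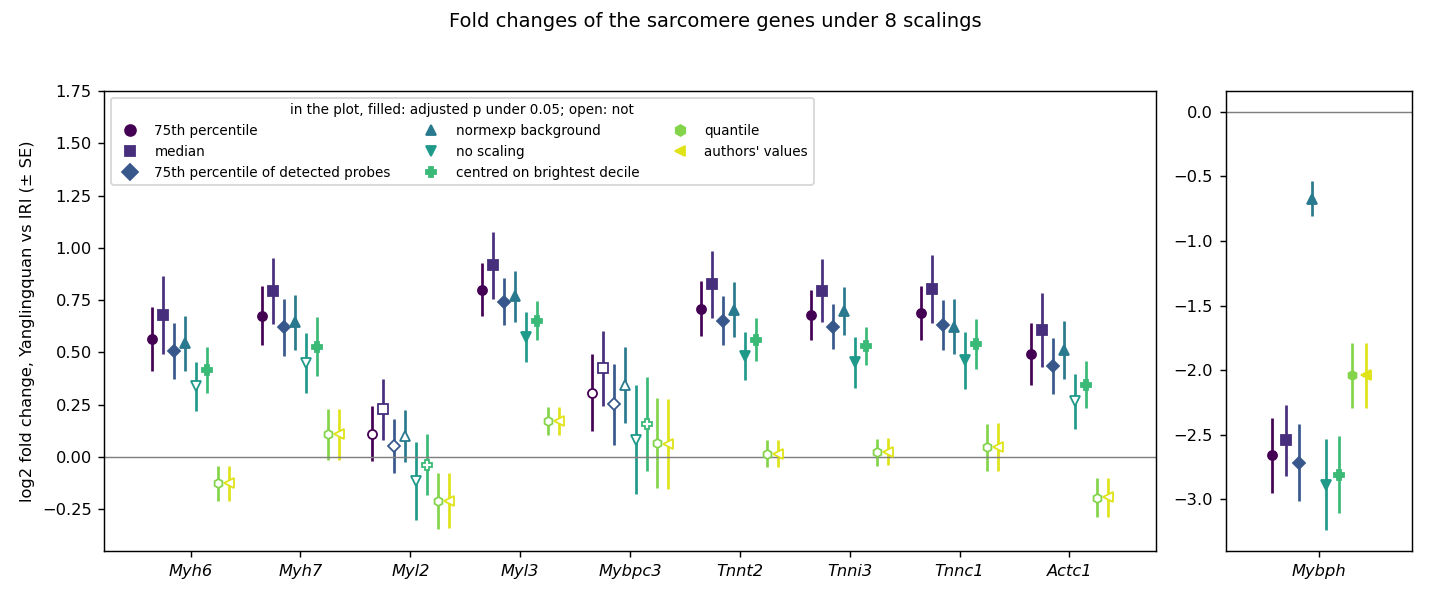
Log2 difference of Yanglingquan from IRI ± SE for each gene under 8 scalings, with filled marks for adjusted p under 0.05. For the 9 bright genes the quantile normalized and the authors' values lie between -0.21 and 0.17, all open, below the percentile-scaled values, while Mybph is filled and below 0 in all 8, with Yanglingquan values that were not well above background.

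After quantile normalization the highest difference among the 9 bright genes was still that of Myl3, at 0.17 ± 0.07 above IRI in Yanglingquan (SE; adjusted p = 0.132). It was 0.15 ± 0.07 in Neiguan (adjusted p = 0.175) and 0.14 ± 0.07 in Jiaji (adjusted p = 0.18). Myh6 (-0.13) and Actc1 (-0.19) turned to below 0 in Yanglingquan, Tnnt2, Tnni3 and Tnnc1 were at 0.02, 0.02 and 0.05, and Myh7 was at 0.11 ± 0.12 (SE; adjusted p = 0.669). Myl2 turned to below 0 as well and was not called. It read 15.39, 15.31, 15.42 and 14.96 in Yanglingquan and 15.50, 15.45, 15.47 and 15.50 in IRI. Over the alternatives run, adjusted p for Yanglingquan against IRI ranged from 1.62e-05 to 0.132 for Myl3, from 0.000243 to 0.669 for Myh7 and from 4.46e-05 to 0.885 for Tnni3. Mybph was called lower there in all 21 alternatives that tested it, with adjusted p from 1.55e-07 to 0.00415. After normexp with an offset of 50, Mybph in Yanglingquan was not called lower than in sham, Jiaji or Neiguan (adjusted p = 0.332, 0.105 and 0.375). This correction draws dim signals together by construction. Since the Yanglingquan values were not well above background, the sizes of these differences are not compared.

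**Figure D4:**
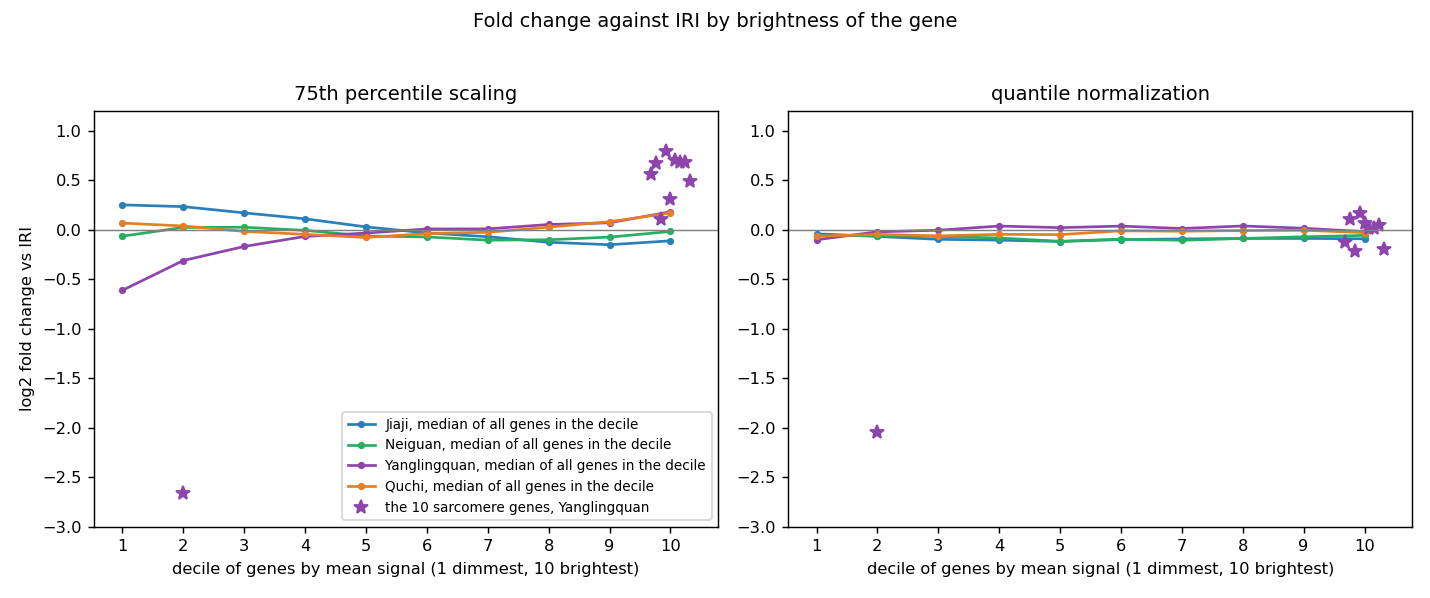
Median log2 difference from IRI of all tested genes in each decile of brightness, for the 4 acupoint groups (lines), with the 10 sarcomere genes in Yanglingquan as stars, on the percentile scale (left) and after quantile normalization (right). On the left the Yanglingquan line climbs from -0.61 to 0.18, with 7 of the stars at 0.49 or more, and on the right the line lies near 0 and 9 of the stars lie between -0.21 and 0.17.

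At the top of the array, quantile normalization assigns a value by the rank of the probe, and neighbouring ranks differ little. The ranks themselves need no scaling. Among the 30367 probes of an array, the Myl3 probe held rank 29 to 30 in sham and 27 to 30 in IRI, but 16 to 24 in Jiaji, 17 to 23 in Neiguan and 16 to 22 in Yanglingquan, with 25 to 30 in Quchi. Those 3 acupoint groups thus lay wholly above sham, IRI and Quchi in rank. Tnni3 held rank 24 to 30 in IRI and moved to 18 to 22 in Jiaji and 20 to 22 in Neiguan, and it stayed within 23 to 28 in Yanglingquan, where its percentile-scaled difference was larger. Tnnt2 held rank 4 to 10 over all arrays and Actc1 6 to 28, with Actc1 at 8 in all 4 sham arrays and at 11 to 13 in Jiaji. Tnnc1 held rank 25 to 39 in IRI, 18 to 38 in Yanglingquan and 36 to 61 in Neiguan. Myh7 ranks overlapped in every group. Mybph held rank 18567 to 19664 in IRI and 23598 to 25757 in Yanglingquan, below every array of the other 5 groups.

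**Figure D5:**
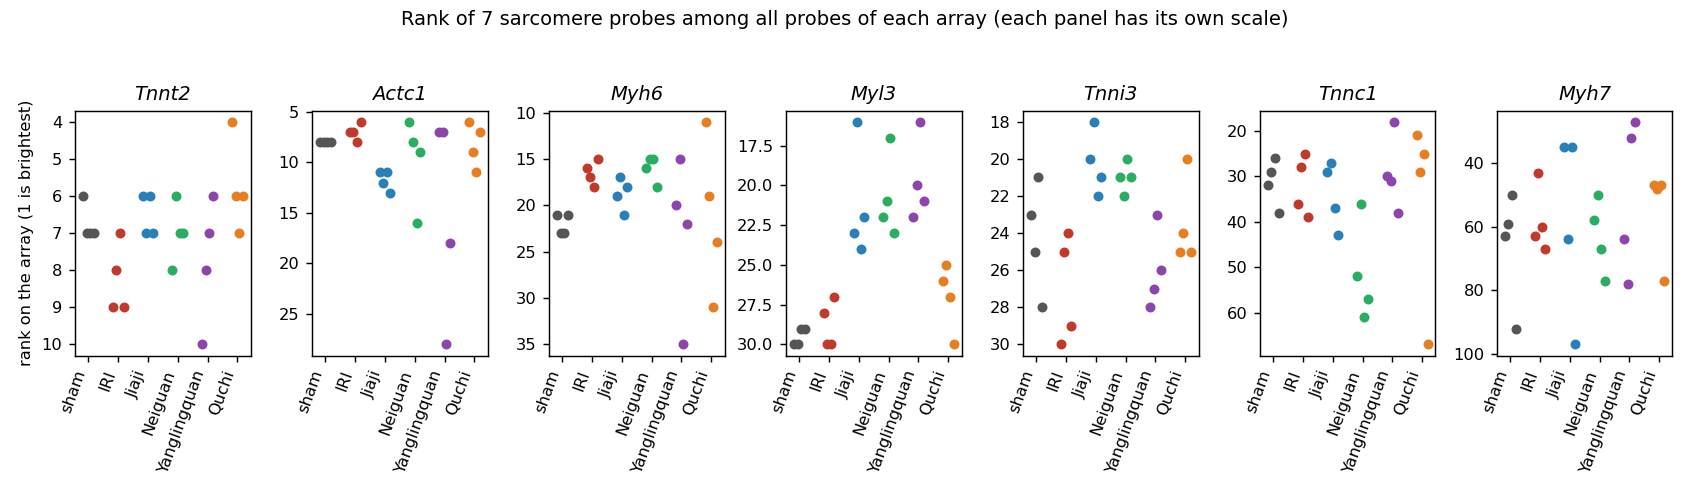
Rank of 7 probes among the 30367 probes of each array, by group, with 1 as the brightest and a separate scale per panel. For Myl3 the Jiaji, Neiguan and Yanglingquan arrays (rank 16 to 24) lie apart from the sham and IRI arrays (rank 27 to 30).

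Tnni3 and Mybpc3 were each printed as 10 spots per array, of which 7 to 10 were used, so the measuring error within an array can be seen. The SD between spots of log2 signal was 0.0545 to 0.129 for Tnni3 (median 0.102) and 0.0298 to 0.153 for Mybpc3 (median 0.0495). The spread between samples of a group was larger for Mybpc3, with an SD of 0.16 to 0.38, and about the same size or larger for Tnni3, at 0.07 to 0.24, although the mean over spots is more precise than 1 spot.

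Across the 24 arrays the bright genes went up and down together on the percentile scale. Pearson's r was 0.985 between Myl3 and Tnni3, 0.975 between Tnni3 and Tnnt2, 0.969 between Myl3 and Tnnt2, 0.947 between Myh6 and Actc1 and 0.844 between Myh7 and Tnnc1. These arrays share their scaling, and after quantile normalization the same values were 0.395, 0.278, -0.04, 0.557 and 0.455. The r are given as descriptions, since the arrays share group, scan and scaling. Myl2 and Mybpc3 had an r to Myl3 of 0.12 and 0.00281. The highest r of Myl2 was 0.583, with Tnnc1, and that of Mybpc3 was 0.474, with Myl2, followed by 0.385 with Myh7. The genes outside the set most like Myl3 on the percentile scale were Atp5f1a (r = 0.963), Tpm1 (0.958) and Rps29 (0.954), and for Tnnt2 they were Atp5f1a (0.963), Tpm1 (0.954) and Fth1 (0.951). Tpm1 is a tropomyosin, Atp5f1a a subunit of the mitochondrial ATP synthase, Rps29 a ribosomal protein and Fth1 a ferritin chain. For Myh6 they were Ckmt2 (0.973), Crip2 (0.941) and Tpm1 (0.934), for Actc1 Crip2 (0.952), Rpl41 (0.932) and Atp5po (0.916), for Myh7 Ldhb (0.931), Ubb (0.914) and Ndrg2 (0.885), and for Tnnc1 Ldhb (0.911), Atp5pb (0.905) and the myoglobin gene Mb (0.883). After quantile normalization Atp5f1a fell to 0.273 with Myl3 and -0.06 with Tnnt2, and Tpm1 kept 0.711 with Myl3. For Mybph, Tnrc18 came first under both scalings, with r = 0.918 and 0.878.

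The genes that moved most closely together on the percentile scale, Myl3, Tnni3 and Tnnt2, are shown with the stretch around their RefSeq start site, from 250 bases before it to 50 after it, on the sense strand (build GRCr8). These windows lie at chr8:119616844-119617143 (Myl3, plus strand), chr1:78342321-78342620 (Tnni3, plus strand) and chr13:49818873-49819172 (Tnnt2, plus strand, the first of its 2 start sites in the table). Capitals mark matches on either strand. The first motif searched was CATTCC, the MCAT element bound by TEAD factors in muscle promoters. The GATA site was searched as AGATAA, and the CArG box bound by SRF and the TATA box were searched as well.
Myl3: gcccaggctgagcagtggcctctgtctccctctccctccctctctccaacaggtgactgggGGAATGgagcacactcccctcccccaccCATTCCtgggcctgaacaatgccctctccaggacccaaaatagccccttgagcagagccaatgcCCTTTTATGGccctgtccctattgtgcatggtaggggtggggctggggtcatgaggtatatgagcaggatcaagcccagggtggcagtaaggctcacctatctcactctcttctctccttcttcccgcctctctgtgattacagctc
Tnni3: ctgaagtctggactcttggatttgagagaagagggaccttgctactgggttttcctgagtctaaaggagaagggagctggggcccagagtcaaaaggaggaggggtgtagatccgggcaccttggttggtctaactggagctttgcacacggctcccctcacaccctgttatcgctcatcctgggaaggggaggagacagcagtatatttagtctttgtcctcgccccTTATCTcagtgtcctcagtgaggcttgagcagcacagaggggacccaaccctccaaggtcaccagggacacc
Tnnt2: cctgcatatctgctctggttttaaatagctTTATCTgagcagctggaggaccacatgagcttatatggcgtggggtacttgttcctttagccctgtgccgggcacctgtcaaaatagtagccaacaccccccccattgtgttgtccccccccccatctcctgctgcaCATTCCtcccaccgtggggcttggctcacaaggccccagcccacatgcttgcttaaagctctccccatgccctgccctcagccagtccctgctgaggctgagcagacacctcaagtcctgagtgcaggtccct
The Myl3 window held MCAT matches at positions -189 and -161 and a CArG box at -97 from the start site, the Tnni3 window a GATA match at -22, and the Tnnt2 window a GATA match at -220 and an MCAT match at -83. None of these matches overlapped another. Of the 8 windows found for 7 of the 10 genes, 3 held CATTCC, 2 held AGATAA, 2 held a CArG box and 0 held TATAAA, beside 14.2%, 11.6%, 1.64% and 14.2% of the 33469 windows of the same length in the table. No motif was in all 3 windows. A match of letters describes the sequence and shows no binding.

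Other genes of the sarcomere gave a mixed picture. Of 18 tested genes of the thin filament and its regulators, 3 were higher in Yanglingquan than in IRI and 0 lower, with a list median of -0.08 beside -0.04 for all genes. These were the tropomyosin Tpm1 (0.65 ± 0.12 SE, adjusted p = 0.00181), Nrap (0.74 ± 0.17, adjusted p = 0.00681), a protein of myofibril ends, and the leiomodin Lmod2 (0.53 ± 0.13, adjusted p = 0.0108), which lengthens thin filaments. After quantile normalization their values were 0.08, 0.41 and 0.13, none called. Of 18 tested genes of the thick filament and M band, 2 were higher and 2 lower, with a median of -0.11. Mylk3, the kinase of the cardiac regulatory light chain, was higher (0.72 ± 0.12, adjusted p = 0.000618) and stayed called after quantile normalization (0.48, adjusted p = 0.0394). Myh8, the perinatal heavy chain, was called higher in Yanglingquan (0.66), Neiguan (0.55) and Jiaji (0.48) against IRI, and after quantile normalization in Neiguan (0.38) and Jiaji (0.33) but not in Yanglingquan (0.16). Myh3, the embryonic heavy chain, was lower in Yanglingquan (-1.39 ± 0.21, adjusted p = 0.00028) and stayed so after quantile normalization (-1.19). The muscle alpha kinase Alpk3 was 0.68 ± 0.16 higher in IRI than in sham (adjusted p = 0.0124) and lower in Yanglingquan than in IRI (-0.82 ± 0.16, adjusted p = 0.0022), and both were called after quantile normalization (0.62 and -0.71).

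Of 19 tested Z disc genes, 2 were higher in Yanglingquan than in IRI, beside 4.09% of all genes. They were the desmin gene Des (0.47 ± 0.10 SE, adjusted p = 0.00443) and the small heat shock protein Cryab (0.78 ± 0.14, adjusted p = 0.00142). Another 2 were higher in Quchi, where 2.39% of all genes were called higher. These were the LIM proteins Fhl1 (0.77 ± 0.17, adjusted p = 0.0138) and Csrp3 (0.64 ± 0.15, adjusted p = 0.0181), of which Fhl1 stayed called after quantile normalization (0.61, adjusted p = 0.0306). Of 22 tested genes of sarcomere assembly and turnover, 1 was higher in Yanglingquan, Trim54 (0.71), a ubiquitin ligase, and 1 lower, the muscle calpain Capn3 (-1.09). Of 26 tested transcription factors of sarcomere genes, Mef2d was higher there (0.38), and Mef2a (-0.65) and Esrrb (-0.83) were lower. After quantile normalization none of these 5 was called. The counts of these 2 lists were near the shares of all genes, 4.09% higher and 8.03% lower. Of 21 tested cardiomyocyte genes outside the sarcomere, 7 were higher in Yanglingquan and 1 lower, with a list median of 0.29. Of all genes 4.09% were higher and 8.03% lower, and of the brightest decile 15.9% and 1.71%. The 7 included the creatine kinase Ckm (0.51), phospholamban Pln (0.62), the calcium pump Atp2a2 (0.70) and the oxidase subunit Cox6a2 (0.55). After quantile normalization 0 of the 21 were higher and 2 lower, beside 2.82% and 3.79% of all genes, and the median was -0.08. Of 14 tested genes of wall stress and the fetal program, 2 were higher in IRI than in sham, among them Cdkn1a (0.60 ± 0.13 SE, adjusted p = 0.0103), and 3 were higher in Quchi than in IRI. Of all genes, 5.75% were called in either direction between IRI and sham, and 2.39% were called higher in Quchi.

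Marker lists of cell types were set beside these values as linear sums over each list, with 1 as the 75th percentile of the array. The ventricular myocyte list, 6 tested genes that include Myl2, Myl3 and Myh7, summed to 253 to 286 in IRI and 384 to 466 in Yanglingquan. Myl2, Myl3 and Myh7 belong to the set described here and make up most of this sum, so it largely repeats their values above. The skeletal muscle list, 11 tested genes that include Ckm, summed to 111 to 123 in IRI and 129 to 165 in Yanglingquan, with 1 gene called higher. All 11 were well above background on every IRI array, and 7 were on every Yanglingquan array. The atrial list, 10 tested genes, summed to 88.8 to 98.9 in IRI and 91.3 to 123 in Yanglingquan, with 0 called. Smooth muscle and pericyte markers summed to 77.5 to 90.2 in IRI and 93.5 to 102 in Yanglingquan. The summed levels of several lists thus were higher on the Yanglingquan arrays on this scale, and their part in the results above was not tested.

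Sex was balanced within groups. Females and males differed in 0 of the 10 genes by limma (0.209% of all genes called in either direction). Myh6 (-0.23 ± 0.09 SE, females minus males, unadjusted p = 0.0146) and Actc1 (-0.23 ± 0.09, unadjusted p = 0.0153) were the 2 with an unadjusted p under 0.05, with adjusted p of 0.276 and 0.279. On the percentile scale both males lay above both females in Quchi for 8 of the 10 genes, all but Mybpc3 and Mybph, beside 25.1% of all genes. This held for 7 genes in Yanglingquan (26.8% of all genes), for 5 in Neiguan (15%) and for 0 in sham (19.7%), IRI (13%) and Jiaji (17.1%). In Jiaji both females lay above both males for 6 of the 10 (12.9% of all genes). The members share arrays, so these counts are not independent of each other. The order also depended on the scaling. After quantile normalization both Yanglingquan males (17.34 and 17.37) lay below both females (17.44 and 17.40) for Tnni3. Myh6 and Myl3 kept their order in Quchi. A test of whether the group differences depend on sex called 0 of the 10 (lowest adjusted p = 0.399, for Tnnc1, the 1 gene with an unadjusted p under 0.05, at 0.0152). Over all 6 groups together, the moderated F test called 7 of the 10, Myh6, Myh7, Myl3, Tnni3, Tnnt2, Tnnc1 and Mybph, where 45.8% of all genes were called, and only Mybph was called after quantile normalization (45.7% of all genes).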

How the data were processed

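RNA of rat heart was measured on 24 single-colour arrays. Spot intensity values were made by Agilent Feature Extraction 11.0.1.1 per the file headers (10.7.3.1 per the submitters' processing notes). The processed intensity was background-subtracted and detrended, steps whose statistics stand in the deposited files. Per the file headers, Feature Extraction also wrote the flags for background, saturation and outliers, which are 0 or 1 (other values). The authors deposited log2 values too, used as an alternative. Each array's median there was 7.20, each column's correlation with log2 signal of its own array was at least 0.9966, and the sources used here do not name the normalization.

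Control spots (1377 per array) and outlier spots (8733 in all) were dropped, and repeat spots averaged. Rat RefSeq transcripts gave symbols for 18005 of 30367 probes (59.3%), covering 15168 genes. The filter kept probes that every array of some group had well above background, and each gene took its brightest kept probe. Log2 signals were reduced by the array's 75th percentile. The limma package (3.58.1, R 4.3.3) fitted group and sex over 24 arrays, with two-sided tests, Benjamini-Hochberg adjustment over 12894 genes and a threshold of 0.05. The labels do not state separate animals for the replicates, so the p-values speak only of the spread among these samples, and 4 arrays a group limit the precision. The fit was tested on simulated data.

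The planned normexp correction on mean signals was run on median signals (offset 50), as the files used hold no mean spot signal. Replicate numbers did not pair samples (correlations of deviations from group means -0.245 to 0.354). All 10 genes are described. From each list of other genes, up to 4 called genes of smallest adjusted p are named, and for likeness the 3 genes of highest Pearson r. Members and lists were chosen with earlier results of these data known. Alternatives were other scalings, background correction, filters, every named probe, no sex term, a replicate block, the scan as a random block, fits of 2 groups and leaving out each array. No scaling and centring on the brightest decile were added after the data were seen. Promoter windows are from RefSeq (GRCr8), matched for 7 of the 10 genes.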

Additional observations from a re-analysis of the deposited data

Results flagged for a closer look

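In 3 of 66 sets of 4 values (10 genes and the Myh7 minus Myh6 difference, each in 6 groups), 1 array lay far from the others by Dixon's criterion, which chance alone meets in about 1 of 20 sets. Myh7 in Yanglingquan replicate 4 was 7.57, and the other 3 arrays lay between 7.23 and 7.27. Actc1 in sham replicate 1 was 7.75, and the other 3 lay between 7.35 and 7.38. Myh7 minus Myh6 in Quchi replicate 3 was -0.17, and the other 3 lay between -0.48 and -0.44.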

How the results depend on the processing

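The 33 called member differences were computed 721 times in all under the alternatives: 537 stayed called in the same direction, 167 kept the direction and lost the call, and 17 changed sign. Of the 10 genes, the percentile scale called 8 in Yanglingquan against IRI, while quantile normalization and the authors' values called 1 each and no scaling 5; against sham it called 7, and quantile normalization and the authors' values called 1 each. Jiaji against IRI had 2 calls, and 0 under median scaling, quantile normalization, the authors' values, no sex term and the fit of only the 2 groups, 1 with no filter or with every named probe, 4 when centred on the brightest decile and 7 with no scaling. Neiguan against IRI had 2, and 0 under median scaling, quantile normalization, the authors' values and the 2-group fit, and 6 with no scaling. Jiaji against sham had 1, and 0 under quantile normalization, the authors' values, no sex term and the 2-group fit, 2 with the percentile of detected probes, 4 when centred on the brightest decile and 8 with no scaling. Its 1 call under median scaling was another gene in the other direction, Myl2 (-0.48). Neiguan against sham had 2, and 1 under median scaling, quantile normalization, the authors' values, no filter and no sex term, and 6 with no scaling. Under the first 3 of these both higher calls were lost, and the 1 call was Myl2, lower (-0.43, -0.37 and -0.37). Quchi against sham had 1, and 0 under median scaling, quantile normalization, the percentile of detected probes, the authors' values, no scaling, the brightest decile, no filter and the 2-group fit. After normexp the call of Myh7 there was lost as well, and the 1 call was another gene, Mybph (0.40, limma adjusted p = 0.0359). The F test called 7, and 1 under quantile normalization and the authors' values. Between acupoint groups 10 were called, 22 under median scaling, 3 under quantile normalization and the authors' values, and 5 in 2-group fits. The causes of these differences were not tested. The 2-group fits also use fewer arrays. The strict filter left Mybph untested.

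With the replicate block, Jiaji against IRI and against sham and Quchi against sham had 0 calls each and Neiguan against sham had 1; it called Myl2 lower in Neiguan than in Quchi (-0.36, adjusted p = 0.0388), a pair with 0 calls without the block, and in Neiguan than in Yanglingquan (-0.34). It left the other counts against IRI and sham within 1.5 times. The replicate numbers do not pair these samples. With the scan as a random block, IRI against sham had 1 call, Quchi against IRI 3, and Jiaji, Neiguan and Quchi against sham 4 each, with 23 between acupoint groups; its correlation of -0.10 rests on Quchi, the 1 group that spans 2 scans.

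Leaving out 1 array at a time gave 0 to 1 calls for IRI against sham, 0 to 3 for Jiaji, 0 to 2 for Neiguan, 6 to 8 for Yanglingquan and 0 to 0 for Quchi against IRI. It gave 0 to 2 for Jiaji, 0 to 2 for Neiguan, 7 to 8 for Yanglingquan and 0 to 3 for Quchi against sham, 7 to 8 for the F test, 7 to 13 between acupoint groups, and 0 for females against males. For Myh7 minus Myh6 it gave 0 as well, which says nothing of stability, since 3 arrays against 4 cannot give a p under 0.0571.

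The values that changed sign were these. For Yanglingquan against IRI, quantile normalization and the authors' values gave -0.13 each for Myh6 and -0.19 each for Actc1. Against sham they gave -0.015 and -0.014 for Myh6, -0.0307 and -0.0294 for Tnni3, and -0.0266 and -0.026 for Tnnt2. For Jiaji against Yanglingquan they gave 0.0362 and 0.0356 for Tnnt2, and no scaling gave 0.0186 for Myh7, 0.0728 for Myl3, 0.12 for Tnnt2 and 0.0113 for Tnnc1. For Neiguan against Yanglingquan no scaling gave 0.0213 for Myh7. The bright probes of 9 genes were well above background on all 24 arrays, while Mybph in Yanglingquan has only a bound.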
